A study of Homo sapiens with 18 samples.

Results

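The 4 HOX clusters were followed as regions of open chromatin in Ccd18-Co, an established line of human colon fibroblasts. A consensus ATAC-seq peak was counted as a HOX peak where it overlapped the body of 1 of 38 HOX genes, or the 3 kb upstream of it, in GENCODE release 44 on hg38. Of 334857 peaks, 166 did so: 40 in HOXA on chromosome 7, 55 in HOXB on chromosome 17, 40 in HOXC on chromosome 12 and 31 in HOXD on chromosome 2. Of the 38 genes, 37 had at least 1 peak, and HOXA5 had none in the table. ATAC-seq reads open chromatin through a transposase that cuts exposed DNA, and the 18 libraries formed 3 groups of 6. Unstimulated cells were compared with cells that had received 3 pulses of a mixture of IL-1B at 0.1 ng/ml with OSM, TNF and IL-17A at 10 ng/ml apiece, each pulse lasting 72 h in medium without serum and followed by 96 h of recovery. After 1 week of rest the pulsed cells were given the solvent DMSO or 250 nM belinostat, an inhibitor of histone deacetylases, for 5 days, and chromatin was prepared 2 weeks later. These concentrations are those of the sample labels; the text of the study gives other concentrations for belinostat and, in places, for IL-1B. The labels do not say whether unstimulated cells went through the same changes of medium or received DMSO, so the cytokines cannot be told apart from these steps. All libraries come from 1 cell line, and the labels do not say that replicates were separate cultures, so that p-values measure the spread between these libraries only.

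HOX genes encode homeodomain transcription factors that specify position along the body axis. Within a cluster the genes with low numbers lie at the 3′ end and are used at the head end of the embryo, and the genes with high numbers lie at the 5′ end and are used towards the tail. Genes with the same number in different clusters are paralogs. Fibroblasts of the adult keep a HOX pattern that reflects the site of the body they came from, Polycomb proteins keep unused parts of a cluster compact, and CTCF sites can separate open from compact parts. Below, the cytokine contrast sets DMSO libraries against unstimulated ones. The belinostat contrast sets belinostat libraries against DMSO ones, and the residual contrast sets them against unstimulated ones. Contrasts share groups, so agreement between them is not independent.

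The sequences below belong to 4 peaks on which the comparisons turn: the pair of HOXA3 intron peaks that lost accessibility after belinostat, the HOXA4 start between them, and the HOXB1 peak that opened in the cytokine contrast under both scalings used. Each run is read from hg38 on the plus strand, up to 300 bases near the centre of the peak and outside annotated untranslated exons. Capitals mark CpG dinucleotides and the AP-1 word TGANTCA.
HOXA3 intron, chr7:27128108-27128407: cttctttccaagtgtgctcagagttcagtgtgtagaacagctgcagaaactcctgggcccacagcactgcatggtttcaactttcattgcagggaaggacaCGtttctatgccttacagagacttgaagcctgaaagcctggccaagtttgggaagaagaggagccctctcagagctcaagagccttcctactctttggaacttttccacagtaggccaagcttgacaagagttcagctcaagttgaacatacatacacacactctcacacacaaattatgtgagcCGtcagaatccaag
HOXA4 start, chr7:27130434-27130733: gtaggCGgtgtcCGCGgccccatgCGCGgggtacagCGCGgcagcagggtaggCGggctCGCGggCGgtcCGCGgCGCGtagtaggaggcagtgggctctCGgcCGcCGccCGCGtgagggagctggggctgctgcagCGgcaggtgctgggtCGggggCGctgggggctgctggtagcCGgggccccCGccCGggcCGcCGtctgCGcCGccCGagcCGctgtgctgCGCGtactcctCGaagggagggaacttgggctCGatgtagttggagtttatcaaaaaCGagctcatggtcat
HOXA3 intron, chr7:27134489-27134788: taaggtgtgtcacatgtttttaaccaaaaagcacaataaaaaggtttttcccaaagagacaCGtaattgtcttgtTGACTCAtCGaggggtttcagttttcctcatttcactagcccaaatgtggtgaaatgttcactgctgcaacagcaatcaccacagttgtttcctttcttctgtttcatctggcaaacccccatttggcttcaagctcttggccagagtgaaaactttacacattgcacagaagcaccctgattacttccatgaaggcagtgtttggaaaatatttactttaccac
HOXB1 coding exon, chr17:48530209-48530508: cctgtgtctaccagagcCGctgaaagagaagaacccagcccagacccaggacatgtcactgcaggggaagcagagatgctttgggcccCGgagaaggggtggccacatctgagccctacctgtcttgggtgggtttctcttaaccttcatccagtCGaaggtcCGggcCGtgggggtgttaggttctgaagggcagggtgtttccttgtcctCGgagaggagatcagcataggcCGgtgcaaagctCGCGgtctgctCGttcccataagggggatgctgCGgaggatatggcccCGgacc

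The 2 HOXA3 intron runs held 2 CpG dinucleotides each, whereas the run at the HOXA4 start held 37. The second intron run held the AP-1 word once, as TGACTCA, and the other 3 runs held none of the 6 words searched. Over all 166 HOX peaks the median GC content was 60.1%, against 50.1% over all peaks, and the median ratio of observed to expected CpG was 0.687 against 0.191. HOX peaks lay within 1 kb of an annotated transcript start in 63.9% of cases, against 16.5% of all peaks. Each word was searched on both strands over the whole peak. The AP-1 word TGANTCA was found in 6.02% of HOX peaks and 20.1% of all peaks, the MEIS word TGACAG in 12.7% and 22.8%, and the TEAD word GGAATG in 16.3% and 24.2%. The CTCF word CNAGGNGGC went the other way, with 18.1% of HOX peaks against 8.76% of all peaks, and 10 of the 31 HOXD peaks held it (32.3%). The PBX-HOX word TGATTNAT stood in 3.61% of HOX peaks and 5.16% of all peaks, and the NF-kB word GGANTTTCC in 1.81% and 1.79%. A match describes the letters only, and the shares carry no test.

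Counts in peaks summed to between 7077321 and 11352032 per unstimulated library, 6488975 and 8066642 per DMSO library and 4661678 and 6370845 per belinostat library. The lower totals after belinostat leave the weakest HOX peaks with few fragments, and the part of depth in each difference was not tested. Levels are given as counts scaled to library size with TMM factors and divided by peak length (CPM per kb), and bulk data cannot tell fewer open cells from less accessibility per cell. The starts of 6 of 6 fibroblast markers were open, from a median of 14.6 CPM per kb at COL3A1 to 66.6 at COL1A1 in unstimulated cells. Among epithelial, immune and endothelial markers, PTPRC and CDH5 had no peak at the start, and the 6 that had one (EPCAM, CDH1, KRT8, KRT20, CD3E and PECAM1) had medians of 1.33 to 3.65 CPM per kb. The median of all peaks was 2.86.

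In unstimulated cells the 4 clusters differed in level. Taking each peak at its mean over 6 libraries, the median over HOXA peaks was 18.9 CPM per kb and over HOXB peaks 10.9, while HOXC (3.70) and HOXD (3.56) lay close to the median of all 334857 peaks (2.86). All 40 HOXA peaks and 48 of 55 HOXB peaks exceeded the upper quartile of all peaks (5.32), as did 6 of 40 HOXC peaks and 11 of 31 HOXD peaks. Summed over a whole cluster, unstimulated libraries ranged from 17.5 to 19.8 CPM per kb for HOXA (median 19.1), from 10.96 to 11.8 for HOXB (median 11.3), from 5.38 to 5.94 for HOXD (median 5.64) and from 3.71 to 4.40 for HOXC (median 3.99). The 4 ranges did not overlap, so each library held the same order of clusters.

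**Figure D1:**
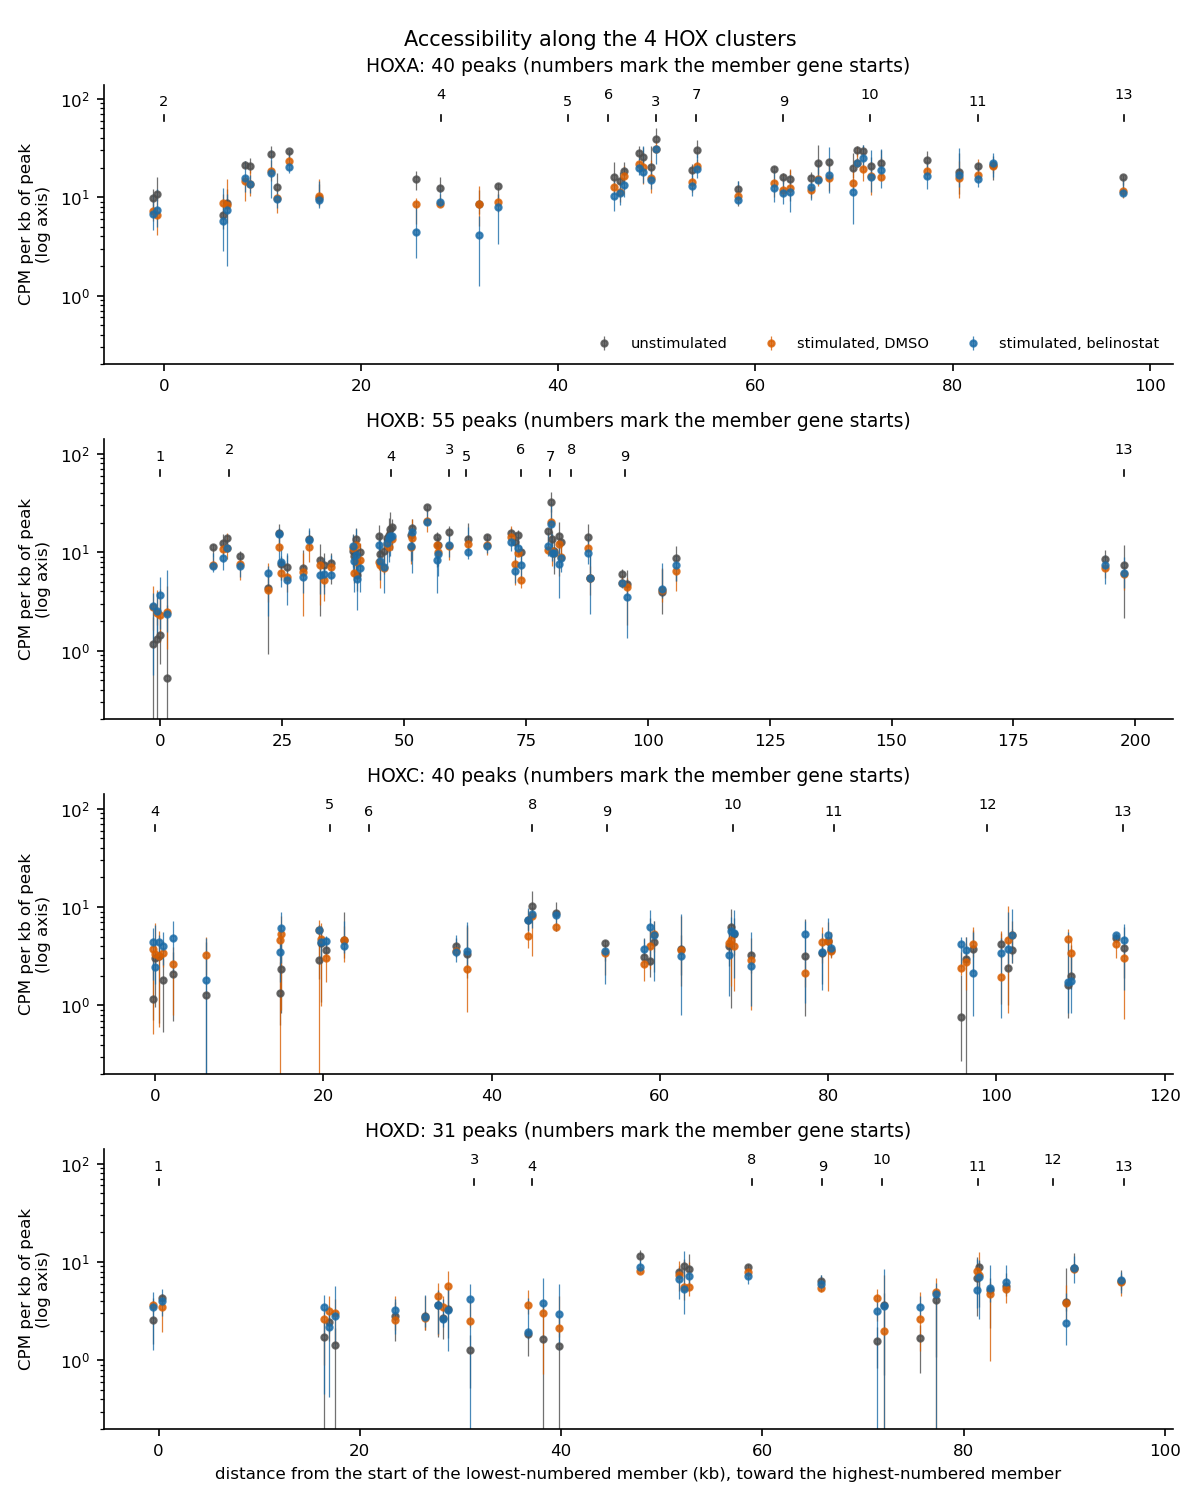
Accessibility of each HOX peak in CPM per kb (log axis) against position in kb along HOXA, HOXB, HOXC and HOXD, counted from the start of the gene with the lowest number; points are medians and bars run from the lowest to the highest of 6 libraries in each group (bars that meet the lower edge go on below the axis), and gene numbers mark the starts. HOXA peaks are high along the cluster, with no peak at HOXA5, HOXB is low at HOXB1, and HOXC and HOXD are high only in parts.

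Along HOXA, peaks were of high accessibility from HOXA2 to HOXA13. No consensus peak lay at HOXA5, so accessibility there was not measured. The strongest HOX peak of all lay over the start of HOXA3 (chr7:27152439-27152838), a gene of the pharyngeal arches, at 36.0, 39.2 and 50.3 CPM per kb as the lowest, median and highest unstimulated library. The HOXA3 start used here lies 49.9 kb along the cluster, between those of HOXA6 (45.1 kb) and HOXA7 (54.0 kb). Of the 10 member starts, 9 had a peak within 1 kb, with medians from 10.3 at HOXA2 to 32.9 at HOXA3. HOXA10 and HOXA11, which pattern the reproductive tract, stood at 24.3 and 21.0, and HOXA13, a gene of the hindgut and distal limb, at 15.9. The 26 peaks from HOXA6 to HOXA13 had a median of 20.7, the 4 peaks around HOXA4 one of 12.7 and the 2 peaks of HOXA2 one of 10.8. Over the 40 peaks, the Spearman correlation of level with position was 0.42. The peaks share libraries and many lie side by side, so the correlation is a description here and for the other clusters.

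HOXB was open from HOXB2 to HOXB8 and weak at its 3′ end. HOXB8 had no peak within 1 kb of its start. Summed over its 4 peaks, all shared with other members, the unstimulated median was 12.7 CPM per kb. The 4 peaks of HOXB1, a gene of the hindbrain, ranged from 0.962 to 1.67 CPM per kb in their means, whereas the 4 peaks of HOXB2 next to it ranged from 9.25 to 13.8. The highest level lay over the start of HOXB7 (chr17:48610949-48611176), at 25.4, 32.2 and 41.0 CPM per kb. Accessibility was lower again at the 5′ end, with 5.58 at the HOXB9 start and 7.34 at the start of HOXB13, a gene of the hindgut and prostate that lies 198 kb from HOXB1. The HOXB13 start varied widely among unstimulated libraries, from 2.16 to 11.9. The correlation of level with position was 0.23 over 55 peaks.

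HOXC was weak apart from HOXC8. Around HOXC8, a gene of the thoracic axis, 3 peaks had a median of 9.24 CPM per kb, with the highest over its start (chr12:54008868-54009160) at 8.24, 10.3 and 14.7. The 12 peaks from HOXC4 to HOXC5 had a median of 2.65 and the 23 peaks from HOXC9 to HOXC13 one of 3.82. Starts of the 5′ genes were of like level, with 4.50 at HOXC10, 4.10 at HOXC11 and 4.92 at HOXC13, the gene of hair and nail. HOXC6 and HOXC12 had no peak within 1 kb of their starts. Level and position had a correlation of 0.20 over 40 peaks.

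HOXD alternated between low and high stretches. The 14 peaks from HOXD1 to HOXD4 had a median of 2.56 CPM per kb, and the 6 peaks from the 5′ part of the HOXD3 body to HOXD9 one of 8.76. The 4 peaks at HOXD10 fell back to 2.39, and the 7 peaks from HOXD11 to HOXD13, the genes of the distal limb and hindgut end, had 6.63. The strongest peak lay in a HOXD3 intron (chr2:176140467-176141240) at 9.26, 11.4 and 13.1. At the starts, HOXD3 (1.29) and HOXD4 (1.80) were the lowest of the cluster and HOXD8 the highest, at 8.68, 8.95 and 9.60 in its lowest, median and highest library. Level and position had a correlation of 0.51 over 31 peaks. These stretches were drawn after the levels had been seen, and no test was made of them.

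**Figure D2:**
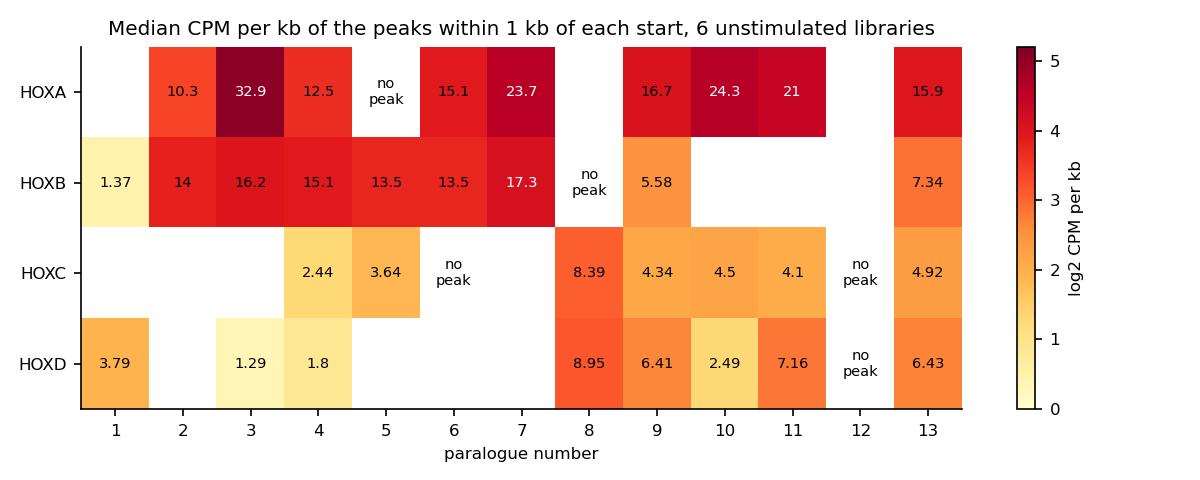
Median accessibility in unstimulated libraries (CPM per kb) within 1 kb of the start of each HOX gene, with clusters as rows and paralog numbers as columns; blank cells are not among the 38 members, and members without a peak are marked so. The HOXA row is highest in 7 of the 9 columns where it can be compared.

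Paralogs with the same number differed between clusters. In 9 paralog groups HOXA and at least 1 other cluster had a peak at the start, and HOXA was highest in 7 of them. The exceptions were group 2, with 10.3 at HOXA2 and 14.0 at HOXB2, and group 4, with 12.5 at HOXA4 and 15.1 at HOXB4, the latter a gene of blood stem cells. In group 2 the libraries overlapped, from 7.86 to 13.4 for HOXA2 and from 12.2 to 15.0 for HOXB2, and in group 4 they overlapped too, from 11.4 to 16.1 for HOXA4 and from 13.8 to 19.2 for HOXB4. Group 6, where HOXA was highest, overlapped as well, from 12.9 to 18.8 for HOXA6 and from 11.0 to 14.6 for HOXB6. In group 3 the levels were 32.9 at HOXA3, 16.2 at HOXB3 and 1.29 at HOXD3, with no overlap between the 3 genes. The starts used for HOXA3 and HOXB3 lie out of paralog order. That of HOXA3 (49.9 kb) lies beyond that of HOXA6, and that of HOXB3 (59.2 kb) beyond that of HOXB4 (47.3 kb). In group 13 they were 15.9 at HOXA13, 7.34 at HOXB13, 6.43 at HOXD13 and 4.92 at HOXC13, and HOXA13 lay above the rest in every unstimulated library while the other three overlapped.

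After the cytokine pulses HOXA and HOXB were less accessible on the TMM scale, and 10 of the weakest peaks, at HOXB1 and in HOXC and HOXD, were more accessible. The HOXA sum was 17.5 to 19.8 CPM per kb in unstimulated and 13.0 to 17.1 in DMSO libraries (median 14.2), a log2 ratio of means of -0.38. The HOXB sum was 10.96 to 11.8 against 8.08 to 10.1 (median 9.03), a log2 ratio of -0.34. For both clusters every DMSO library lay below every unstimulated library on the TMM scale. The TMM factors also differed by group, at 0.827 to 0.925 in unstimulated and 0.950 to 1.08 in DMSO libraries. The sums were not made under another scaling. With library totals in place of TMM the median log2 fold change of peaks was -0.16 in HOXA and -0.10 in HOXB. The HOXC sum (3.66 to 4.16 in DMSO, median 3.92, log2 ratio -0.04) and the HOXD sum (5.04 to 5.67, median 5.27, log2 ratio -0.09) overlapped with the unstimulated ranges.

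Peak by peak, edgeR called 33 of the 166 HOX peaks closed and 10 opened at an adjusted p under 0.05, where 9.73% of all peaks were called closed and 9.51% opened. HOXA held 20 of the closed peaks and 0 opened (0 opened at an unadjusted p under 0.05 and 0 by DESeq2), and HOXB held 11 closed and 3 opened. HOXC had 1 closed and 3 opened, and HOXD 1 closed and 4 opened. Median log2 fold changes were -0.37 for HOXA, -0.31 for HOXB, 0.10 for HOXC and 0.07 for HOXD, beside 0.13 for all peaks. The closed peaks fell by 0.35 to 0.91 on the log2 scale. Each of the 10 opened peaks had an unstimulated median of at most 1.85 CPM per kb, below the median of all peaks. Leaving out 1 library moved these counts by over 1.5 times: the closed count was 19 without unstimulated replicate 1, 21 without unstimulated replicate 6, 19 without DMSO replicate 1 and 17 without DMSO replicate 4. The opened count was 6 without unstimulated replicate 2, 6 without DMSO replicate 1 and 5 without DMSO replicate 4.

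**Figure D3:**
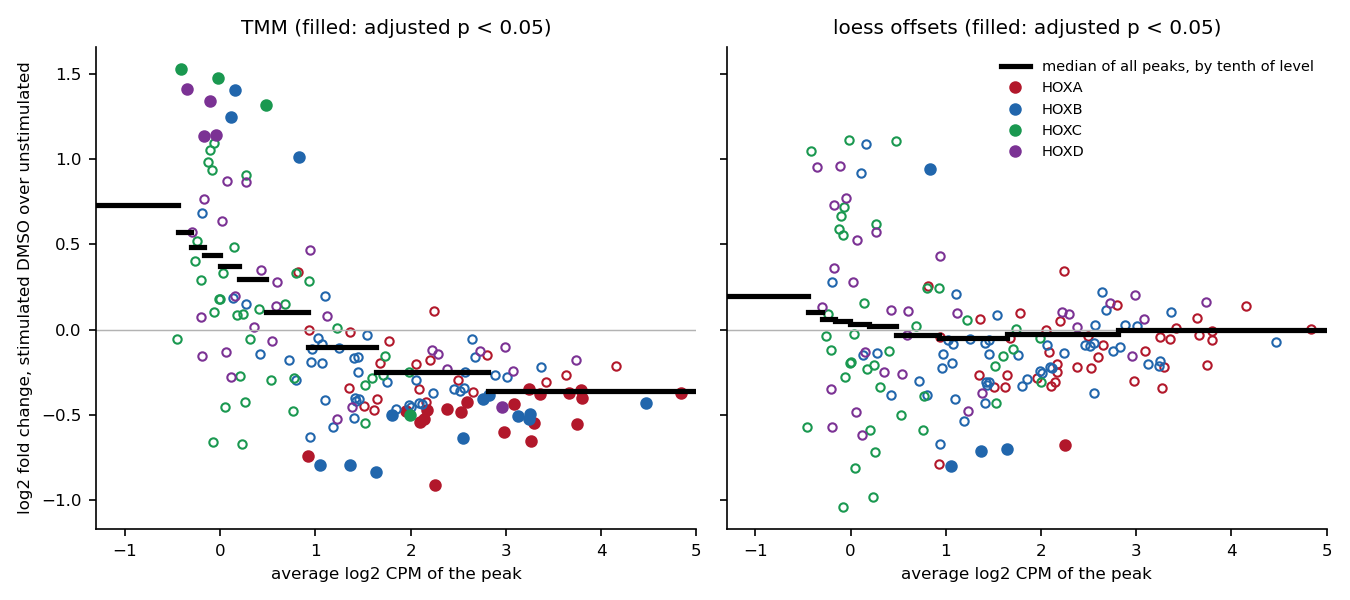
Log2 fold change in the cytokine contrast of each HOX peak (points, colored by cluster) against its average log2 CPM, with the median of all peaks in 10 bins holding equal numbers of peaks (bars), under TMM scaling and with loess offsets. Under TMM the bars fall from 0.73 to -0.36 and most HOX peaks above the middle of the axis lie below 0, and with loess offsets the bars lie between -0.05 and 0.20.

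The direction went with the level of the peak, over all peaks as over HOX peaks. When all peaks were ranked by average level in 10 bins of equal size, the bin of highest level had a median log2 fold change of -0.36 and 63.3% of its peaks were called closed. The 26 HOX peaks in that bin had a median of -0.37, and 17 were called closed. In the next bin 21.5% of all peaks were called closed, against 13 of 45 HOX peaks (median -0.36 against -0.25 for all peaks of the bin). The top 2 bins held 33 of the 40 HOXA peaks, 26 of the 55 HOXB peaks, 4 of the HOXC and 8 of the HOXD peaks. The Spearman correlation between fold change and unstimulated level, which share the unstimulated libraries, was -0.37 in HOXA, -0.52 in HOXB, -0.78 in HOXC and -0.85 in HOXD.

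Loess offsets, fitted in each library to the trend of counts with average level, reduce that relation over all peaks. With them, 4 HOX peaks were called closed and 1 opened, where 1.91% of all peaks were called closed and 2.00% opened. The cluster medians became -0.11 for HOXA, -0.14 for HOXB, -0.12 for HOXC and 0.11 for HOXD. Of the 43 peaks called under TMM, 5 were called with loess offsets too, 1 in HOXA and 4 in HOXB, and 2 were called under all 9 alternatives in scaling, filter, tool and design. The 5 were picked out after their values had been seen.

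**Figure D4:**
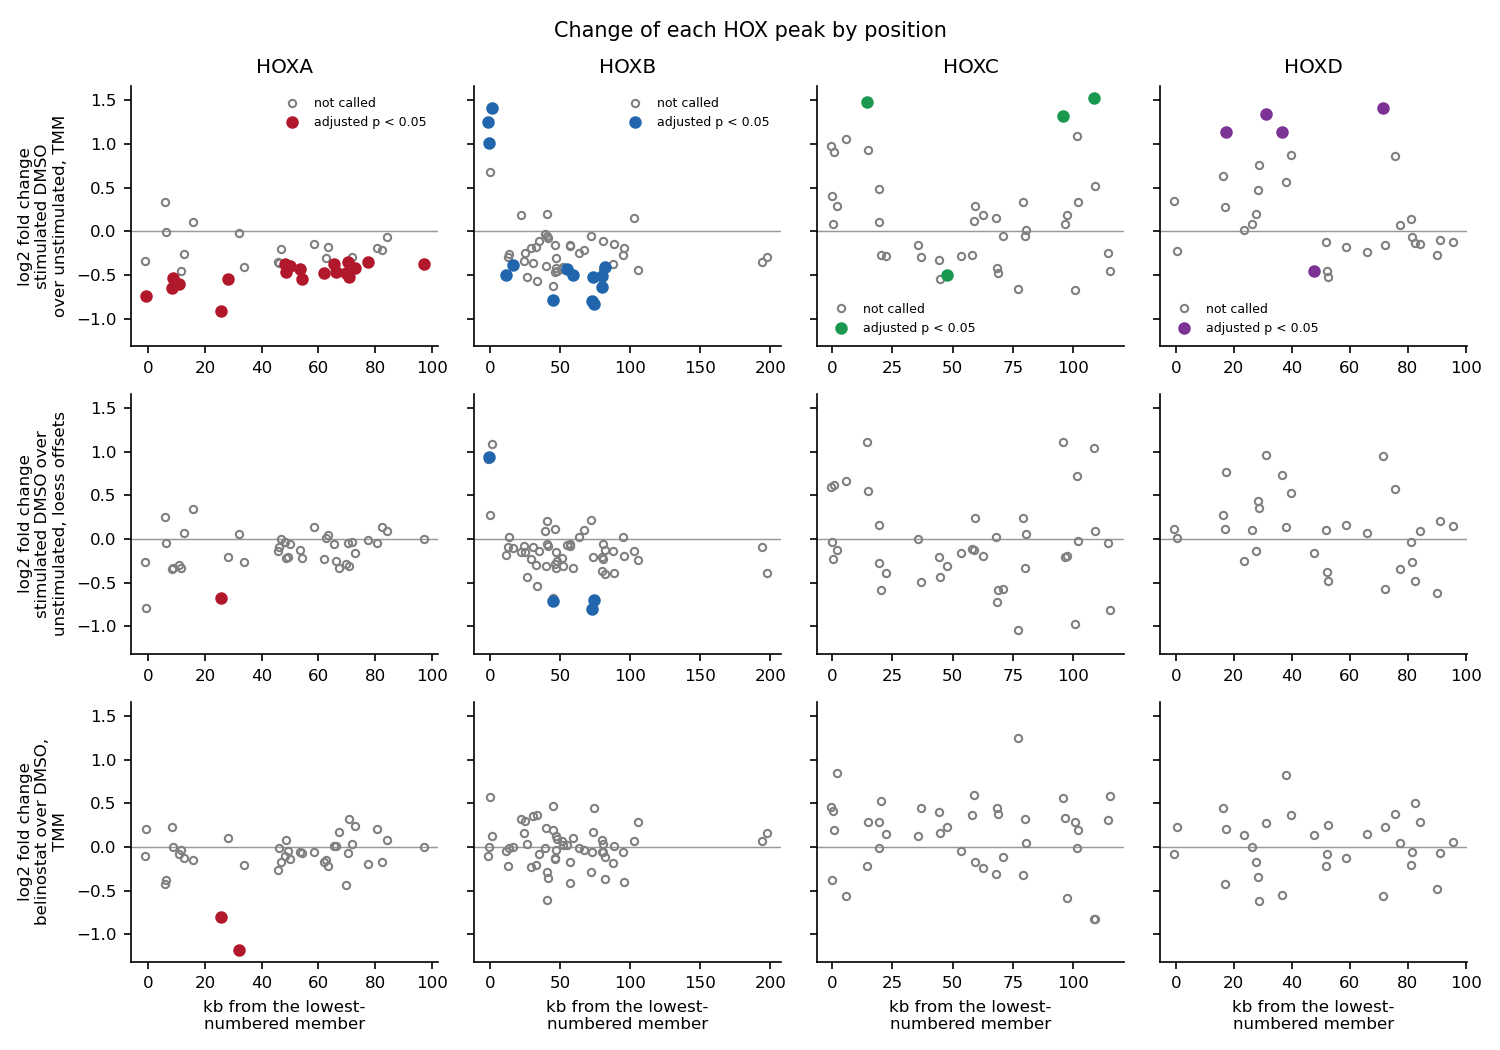
Log2 fold change of each HOX peak against position in kb along each cluster (columns), for the cytokine contrast under TMM, the cytokine contrast with loess offsets and the belinostat contrast under TMM (rows); filled points are called at an adjusted p under 0.05. The 33 closed and 10 opened peaks of the first row shrink to 4 and 1 in the second, and 2 HOXA peaks are filled in the third.

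The clearest of the 5 lay in a HOXA3 intron, with its centre 2499 bp from the HOXA4 start (chr7:27128022-27128494), and also overlapped the gene of the antisense transcript HOXA-AS2. It stood at 11.8, 15.3 and 18.7 CPM per kb in the lowest, median and highest unstimulated library and at 5.40, 8.45 and 9.77 in DMSO libraries. No DMSO library reached the lowest unstimulated one. The log2 fold change was -0.91 ± 0.16 (SE, n = 6 against 6; edgeR quasi-likelihood test, adjusted p 3.2e-05), and the adjusted p stayed between 8.9e-07 and 0.0211 over the 9 alternatives. Its GC content was 44.2%, against 71.1% in the HOXA4 start peak beside it.

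Of the 4 in HOXB, 3 closed and 1 opened. The HOXB4 untranslated exon (chr17:48575718-48575921) held 9.97, 14.7 and 18.9 CPM per kb unstimulated and 6.64, 7.88 and 9.84 in DMSO (log2 fold change -0.79 ± 0.22, edgeR adjusted p 0.00717). The groups did not overlap, and the call stood in all 9 alternatives (adjusted p 9.32e-05 to 0.0487). The other 2 closed HOXB peaks called under both scalings are not reported singly here.

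The 1 peak that opened under both scalings lay over a coding exon of HOXB1 (chr17:48530006-48530677), within 1 kb of its start. It held 0.193, 1.322 and 2.43 CPM per kb in unstimulated and 1.81, 2.40 and 4.12 in DMSO libraries, from counts of 1 to 19 fragments. The groups overlapped, and the log2 fold change was 1.02 ± 0.29 (edgeR adjusted p 0.00962, 0.0493 with loess offsets, 0.0035 to 0.144 over the alternatives). Without unstimulated replicate 2 the adjusted p was 0.0505, with a log2 fold change of 0.78. The other 2 opened peaks of HOXB, also at HOXB1, and the 7 in HOXC and HOXD were called under TMM but not with loess offsets.

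**Figure D5:**
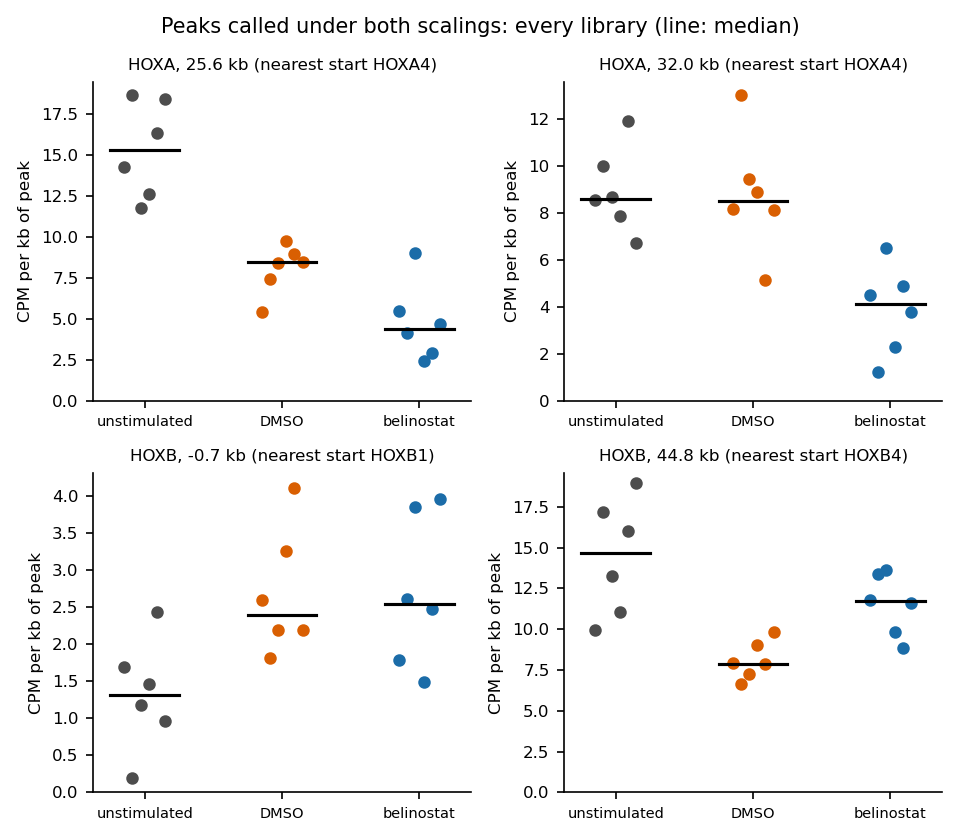
Accessibility in CPM per kb of 4 HOX peaks called under both scalings in the cytokine or the belinostat contrast, with 1 point per library in the 3 groups and a bar at the median; titles give the position in kb along the cluster. The HOXA3 intron peak at 25.6 kb has medians of 15.3, 8.45 and 4.41 in the 3 groups, and the one at 32.0 kb has 8.62, 8.54 and 4.15.

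Summed over the peaks of a gene, edgeR called 18 of the 37 measurable HOX genes lower in DMSO and 2 higher, where 61.6% of 18893 protein-coding genes were called lower and 10.6% higher. The 18 were 8 in HOXA, 8 in HOXB, and HOXC6 and HOXC8. Neighboring HOX genes overlap and share peaks (8 of the 19 peaks of HOXA3 and 13 of the 33 of HOXB3 also belong to other members), so these are not 18 separate results. HOXA3 and HOXA4 remained lower under all 9 alternatives, with 17.6, 18.7 and 20.7 CPM per kb against 12.8, 14.1 and 16.0 for HOXA3 (log2 fold change -0.41 ± 0.08, edgeR adjusted p 0.000356). HOXA4, measured by its start peak alone, had 11.4, 12.5 and 16.1 against 8.29, 8.45 and 10.8 (log2 fold change -0.55 ± 0.11, edgeR adjusted p 0.000386). For both genes every DMSO library lay below every unstimulated one on the TMM scale. With loess offsets its adjusted p was 0.00444 in the fit over genes, while the same start peak in the fit over peaks had 0.000952 under TMM and 0.184 with loess offsets.

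The 2 HOX genes that were higher, HOXB1 and HOXD4, are both weakly accessible. HOXB1 rose from 0.491, 1.24 and 1.84 CPM per kb to 1.97, 2.71 and 3.31, with no overlap between groups (log2 fold change 1.12 ± 0.22, edgeR adjusted p 0.00032), and stayed called in all 9 alternatives. HOXD4 rose from 0.894, 1.54 and 2.34 to 2.04, 2.92 and 4.00 (log2 fold change 0.91 ± 0.24, edgeR adjusted p 0.00176), where the groups overlapped and 6 of 9 alternatives kept the call. All 3 peaks of HOXD4 also belong to HOXD3. Without DMSO replicate 3 the higher count was 4. Counts were 5 to 22 fragments for HOXB1 and 4 to 13 for HOXD4 in unstimulated libraries. With loess offsets 5 HOX genes were lower and 3 higher, where 7.44% of all genes were called lower and 13.5% higher. The 3 were HOXB1, HOXC4 and HOXD3, and HOXD4 was not called (edgeR adjusted p 0.132). HOXC8 was among the 5 lower genes, from 8.17, 8.99 and 9.87 to 4.81, 6.39 and 7.97 CPM per kb with no overlap between groups (log2 fold change -0.47 ± 0.12, edgeR adjusted p 0.00181, 0.00952 with loess offsets). All 3 peaks of HOXC8 also belong to other members, and 8 of 9 alternatives kept the call. In the fit over peaks 0 HOXC peaks were called closed with loess offsets.

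Few HOX peaks were called in the belinostat contrast, as over all peaks, of which 1.75% were called closed and 0.607% opened. Cluster sums overlapped in all 4 clusters. The HOXA sum was 11.9 to 18.4 CPM per kb after belinostat (median 13.6, log2 ratio -0.06), HOXB 7.58 to 10.7 (median 9.35, 0.01) and HOXD 4.96 to 5.76 (median 5.41, 0.02). The highest HOXA sum came from belinostat replicate 1, with the other 5 libraries at 11.9 to 13.8. The HOXC sum moved most, to 4.15 to 4.66 (median 4.38) with a log2 ratio of 0.17, and its lowest library lay just below the highest DMSO library (4.16). Median log2 fold changes of peaks were -0.07, -0.0047, 0.21 and 0.05 in HOXA, HOXB, HOXC and HOXD, beside 0.01 for all peaks.

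EdgeR called 2 HOX peaks closed and 0 opened in the belinostat contrast (4 opened at an unadjusted p under 0.05, 0 opened by DESeq2 and 0 with loess offsets), where 1.75% of all peaks were called closed and 0.607% opened. With loess offsets the same 2 were closed, where 1.51% of all peaks were called closed and 0.945% opened. Both lie in introns of HOXA3 on either side of the HOXA4 start, and both were called in all 9 alternatives.

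Without DMSO replicate 4, belinostat replicate 4 or belinostat replicate 5 the closed count was 1, and without belinostat replicate 1 the opened count was 1.

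The first is the peak 2499 bp from the HOXA4 start that was already lower after the cytokine pulses. It went from a median of 8.45 in DMSO to 2.42, 4.41 and 8.99 CPM per kb after belinostat, a log2 fold change of -0.81 ± 0.21 (edgeR adjusted p 0.0165, 0.0133 to 0.0457 over the alternatives). The groups overlapped, and the adjusted p was 0.0537 without DMSO replicate 4, 0.0953 without belinostat replicate 4 and 0.0906 without belinostat replicate 5. Against unstimulated cells its log2 fold change was -1.72 ± 0.19 (edgeR adjusted p 2.26e-13), with no overlap between groups.

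The second lay 3881 bp from the HOXA4 start on the other side (chr7:27134483-27134794), had the lowest GC content of all 166 HOX peaks (40.4%) and held the AP-1 word shown above. Unstimulated libraries stood at 6.71, 8.62 and 11.9 CPM per kb and DMSO libraries at 5.14, 8.54 and 13.0, a log2 fold change of -0.01 ± 0.20 (edgeR adjusted p 0.972). After belinostat they stood at 1.25, 4.15 and 6.52, from counts of 2 to 30 fragments over all groups. The log2 fold change against DMSO was -1.18 ± 0.26 (edgeR adjusted p 0.00151, 0.00127 to 0.00578 over the alternatives), and the call stood without any 1 of the 18 libraries. The highest belinostat library exceeded the lowest DMSO library, and all belinostat libraries lay below all unstimulated ones (residual log2 fold change -1.19 ± 0.26, edgeR adjusted p 0.000131). Of the 10 HOX peaks with the AP-1 word this was the only one called in the belinostat contrast. The other called HOX peak did not hold the word, and a relation between the word and the change was not tested.

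Between them, the HOXA4 start (chr7:27130075-27131315) showed no such step. It held 8.29, 8.45 and 10.8 CPM per kb in DMSO and 7.93, 9.04 and 12.8 after belinostat, with a log2 fold change of 0.10 ± 0.13 (edgeR adjusted p 0.742). The difference between the start and its flanks was not tested.

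Over gene sums edgeR called 0 HOX genes higher and 0 lower in the belinostat contrast (2 higher and 0 lower at an unadjusted p under 0.05, 0 and 0 by DESeq2), where 0.138% of all genes were called higher and 1.73% lower. With loess offsets 2 were higher and 0 lower, where 2.38% of all genes were called higher and 2.49% lower. These were HOXB3, from 9.79, 10.8 and 11.7 to 8.74, 11.4 and 13.1 CPM per kb on the TMM scale, and HOXC6, from 3.69, 4.09 and 4.81 to 4.58, 4.69 and 5.31. Both ranges overlap. On the loess scale the log2 fold change was 0.15 (edgeR adjusted p 0.0421) for HOXB3 and 0.28 (edgeR adjusted p 0.0420) for HOXC6.

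In the residual contrast belinostat cells were compared with unstimulated cells, so it shares a group with each of the others. EdgeR called 36 HOX peaks closed and 16 opened, where 13.7% of all peaks were called closed and 16.8% opened. HOXA held 23 closed and 0 opened (0 opened at an unadjusted p under 0.05 and by DESeq2), HOXB 13 closed and 4 opened, HOXC 6 opened and 0 closed (0 closed at an unadjusted p under 0.05 and by DESeq2) and HOXD 6 opened and 0 closed (3 closed at an unadjusted p under 0.05, 0 by DESeq2). Without belinostat replicate 4 the opened count was 10. With loess offsets 6 were closed and 2 opened, where 4.93% of all peaks were called closed and 3.82% opened, and 7 of the 52 peaks called under TMM were called with loess offsets too. The other peak called with loess offsets lay upstream of HOXD12 (chr2:176098385-176098589, log2 fold change -1.20, edgeR adjusted p 0.0271, and 0.127 under TMM). On the TMM scale the HOXB sum after belinostat stayed below every unstimulated library, while the HOXA sum overlapped through belinostat replicate 1.

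Of the 7, 4 were called in all 9 alternatives: the 2 HOXA3 intron peaks, a peak between HOXA9 and HOXA10 and a peak in HOXC12. The HOXA9 to HOXA10 peak (chr7:27172491-27172724) went from 15.5, 19.9 and 27.9 CPM per kb in unstimulated to 12.1, 14.0 and 18.9 in DMSO and 5.33, 11.2 and 15.4 in belinostat libraries. Its residual log2 fold change was -0.91 ± 0.20 (edgeR adjusted p 0.000142), and the highest belinostat library lay just below the lowest unstimulated one. The HOXC12 peak, in an untranslated exon (chr12:53957795-53958261), rose from 0.272, 0.762 and 2.05 to 2.03, 2.41 and 3.45 in DMSO and 2.38, 4.21 and 5.01 after belinostat. The residual log2 fold change was 1.88 ± 0.35 (edgeR adjusted p 8.32e-06) with no overlap between unstimulated and belinostat libraries, whose counts were 1 to 14 fragments. Over gene sums 17 HOX genes were lower and 4 higher, where 65.9% of all genes were called lower and 12.8% higher. With loess offsets 5 were lower and 4 higher, where 17.8% of all genes were called lower and 19.9% higher.

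Genes that work with or on HOX genes were taken from lists chosen for their role, and their medians in the cytokine contrast ran from -0.36 to -0.26. Of 9 HOX cofactors (PBX, MEIS and PKNOX genes, whose proteins bind DNA together with HOX proteins) 8 were lower, beside 61.6% of all genes, and 0 higher (0 higher at an unadjusted p under 0.05) beside 10.6%, with a median log2 fold change of -0.28 beside -0.26 for all genes. With loess offsets 0 of the 9 passed in either direction (1 higher and 1 lower at an unadjusted p under 0.05), where 13.5% of all genes were higher and 7.44% lower. Of 20 Polycomb genes 18 were lower (median -0.36), beside 61.6% of all genes, and with loess offsets 3, beside 7.44%: JARID2, BMI1 and CBX8, members or partners of the Polycomb complexes. Their log2 fold changes under TMM were -0.40 ± 0.07, -0.49 ± 0.11 and -0.48 ± 0.10. Of 9 Trithorax and H3K27 demethylase genes 7 were lower under TMM (median -0.30), beside 61.6% of all genes. With loess offsets KMT2C alone passed, as higher (0.30, edgeR adjusted p 0.00142), and 1 of 9 is near the 13.5% of all genes. Of the 12 genes that flank the 4 clusters 7 were lower under TMM (median -0.26), near the 61.6% of all genes, and 1 higher and 2 lower with loess offsets, beside 13.5% and 7.44%.

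Among 18 other transcription factors of body position 11 were lower and 1 higher under TMM (median -0.33), where 61.6% of all genes were lower and 10.6% higher. With loess offsets 3 were higher and 0 lower by edgeR (3 lower at an unadjusted p under 0.05), where 13.5% of all genes were higher and 7.44% lower. The factors of gut mesenchyme, FOXF1, FOXF2 and NKX2-3, had unstimulated medians of 34.8, 11.3 and 60.1 CPM per kb. The 1 that was higher under both scalings was TBX5, a gene of the heart and forelimb, at a low level: 2.12 CPM per kb as the unstimulated median and 2.96 in DMSO (log2 fold change 0.45 ± 0.12, edgeR adjusted p 0.0023, 0.00486 with loess offsets). In the belinostat contrast the 5 lists, of 9, 20, 9, 12 and 18 genes, held 1 gene that passed under TMM. It was CALCOCO1 beside HOXC, which was lower (-0.30 ± 0.08, edgeR adjusted p 0.0493), where 1.73% of all genes were lower and 0.138% higher. With loess offsets the cofactor, Trithorax and other positional lists held 1 higher gene apiece. The Polycomb and flanking lists then held 1 lower gene apiece, where 2.38% of all genes were higher and 2.49% lower.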

How the data were processed

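ATAC-seq libraries of 18 Ccd18-Co samples were analysed from the peak table the authors deposited. Per the labels and the methods of the study, the authors used the ENCODE pipeline for ATAC-seq on hg38, with lanes joined and duplicates and mitochondrial reads taken out, called peaks with MACS2, formed a consensus set and counted fragments per peak with csaw, without pooling replicates. The deposited values are raw counts per peak and library, in 334857 peaks. The submitters' processing notes name ChIPseeker 1.34.1. The authors scaled on background bins, which needs the reads, so TMM factors over peaks were used here and the cytokine contrast in particular depends on the scaling.

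Groups were taken from the sample labels. The edgeR 4.0.16 quasi-likelihood test in R 4.3.3 was fitted over all 18 libraries and all 334857 peaks, with 1 mean per group, no covariate and Benjamini-Hochberg adjustment over all peaks. A floor at an average log2 CPM of -3 removed 0 peaks. Counts of the peaks in the body or the 3 kb upstream of each gene were summed and tested in the same way over 18893 protein-coding genes. SE is the absolute log2 fold change over the root of F. Levels are TMM-scaled CPM per kb of peak, and a median over 6 libraries lies between 2 of them. Sums over clusters and lists carry no p-value. Alternatives were library totals, TMM over the weaker 50% of peaks or over 10 kb bins, loess offsets, DESeq2 1.42.0, an average log2 CPM above 0, only the groups compared, a replicate block, and loess offsets on abundance and GC content, which was added after seeing the data. Peak centres, gene bodies alone, an adjusted p under 0.01 and leaving out each library were tried too. The scripts were tested on simulated data. Replicates of a group differed by more than sampling noise (chi-square per degree of freedom 1.03 to 2.62 over 45 pairs). Named peaks were up to 3 called peaks with the smallest adjusted p per contrast, cluster and direction, the strongest unstimulated peak of each cluster and promoter peaks of described genes. Any HOX gene could be named. Peaks and related genes named for a call under both scalings, or for their role in the gut, were picked after their values were seen. Members and lists were chosen with earlier results of these data known. Some items are not reported here. Precision is limited by counts, and statements on single weak peaks rest on few fragments.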

Additional observations from a re-analysis of the deposited data

Results flagged for a closer look

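Among 105 sets of 6 libraries checked, 4 held 1 library far from the other 5, measured as its gap to the nearest library over the whole range (Dixon's rule at 95%), and chance alone would give about 1 in 20. In the HOXB1 upstream peak at chr17:48532252, belinostat replicate 2 stood at 6.539 CPM per kb and the others at 1.527 to 3.216. In the HOXB peak at chr17:48603928, DMSO replicate 5 stood at 12.08 and the others at 9.31 to 10.21. In the HOXC13 coding exon peak at chr12:53945225, belinostat replicate 5 stood at 5.643 and the others at 0.8315 to 2.584. The HOXA cluster sum was 18.43 CPM per kb in belinostat replicate 1 and 11.86 to 13.84 in the others.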

How the results depend on the processing

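Counts of HOX peaks and genes in the cytokine and residual contrasts depended on the scaling; the cause was not tested, except that a stricter threshold calls no more by construction. HOX peaks closed in the cytokine contrast numbered 10 with library totals, 93 with TMM over the weaker 50% of peaks, 4 with loess offsets, 8 with loess offsets on abundance and GC content, 15 by DESeq2 and 12 at an adjusted p under 0.01. Those opened numbered 1 with the weaker 50%, 1 with loess offsets, 0 with loess offsets and GC content, 5 by DESeq2, 5 at an average log2 CPM above 0 and 2 at 0.01. In the residual contrast the closed counts were 6, 99, 6, 9, 21 and 20 in the order just given for closed peaks, and the opened counts were 1 with the weaker 50%, 2 with loess offsets, 1 with GC content, 8 above 0 and 6 at 0.01. In the belinostat contrast 1 peak was closed at 0.01. HOX genes lower in the cytokine contrast numbered 6 with library totals, 32 with the weaker 50%, 5 with loess offsets and 5 with GC content, and those higher 6 with totals, 1 with the weaker 50%, 4 over 10 kb bins and 4 by DESeq2. In the residual contrast lower genes numbered 2, 32, 5 and 4 under the same settings, and higher ones 12 with totals and 2 with the weaker 50%. In the belinostat contrast higher genes numbered 1 with totals, 2 with loess offsets and 2 with GC content.

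With 1 library left out, the cytokine contrast called 17 to 44 HOX peaks closed and 5 to 12 opened, the belinostat contrast 1 to 2 closed and 0 to 1 opened, and the residual contrast 26 to 45 closed and 10 to 17 opened. Genes numbered 16 to 21 lower and 2 to 4 higher in the cytokine contrast, 15 to 20 lower and 4 to 5 higher in the residual contrast, and 0 in the belinostat contrast.

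Replicate numbers did not pair the samples: over 18 same-numbered pairs the correlations of deviations ran from -0.133 to 0.106, with 1 over 0.1, and 4 pairs matched best with their own number. With a replicate block the cytokine contrast called 34 peaks closed and 10 opened, the belinostat contrast 2 and 0, and the residual contrast 35 and 17. Genes numbered 18 lower and 2 higher, 0 and 0, and 17 lower and 4 higher.

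Among 97 changes of named peaks and genes that were checked, directions turned for 18 values on the log2 scale, all in the residual contrast. With loess offsets the peaks at chr7:27110677 (0.0091), chr7:27130075 (0.030), chr17:48585285 (0.13) and chr17:48603928 (0.081) and the genes HOXA9 (0.0083), HOXA10 (0.0015), HOXA11 (0.042), HOXB3 (0.10) and HOXB6 (0.011) came out above 0. With GC content HOXA9 (0.0090), HOXA11 (0.032), HOXA13 (0.050), HOXB3 (0.078) and HOXB7 (0.0011) did so, and with library totals HOXA11 (0.013) and HOXD8 (0.0053). With the weaker 50% HOXC4 (-0.19) and HOXC12 (-0.039) came out below 0. Outside the 97, genes not called under TMM turned too. HOXD3 went from -0.04 to 0.23 with loess offsets in the cytokine contrast (edgeR adjusted p 0.0138 with loess offsets). In the residual contrast HOXD3 went from -0.04 to 0.32 (edgeR adjusted p 0.000502) and HOXC6 from -0.07 to 0.26 (edgeR adjusted p 0.0109), again with loess offsets. The cause was not tested.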
